A study of Mus musculus with 8 samples.

Results

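The genes described here encode the splicing factors of 6 families and were taken from a table of 49997 genes by their symbols alone. The rule kept Srsf followed by a number (11 genes), Sf3a and Sf3b followed by a number (9 genes), and every symbol that begins with Hnrnp (20 genes), Snrp (13 genes), Prpf and a number (13 genes) or U2af (3 genes), and left out pseudogene symbols with -ps. This gave 69 members. Snrpn had no count in any library, and 68 members had at least 1 count. Only genes that averaged 10 or more counts across the 8 libraries were tested, a limit which 6901 genes of the table and 46 members reached. These were 10 Srsf, 5 Sf3, 16 Hnrnp, 3 Snrp, 10 Prpf and 2 U2af genes. The other 23 members had mean counts of at most 9.25 and were not tested, so the tested members are not the whole of any family.

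Splicing removes introns from pre-mRNA in the spliceosome, a machine built anew on each intron from small nuclear ribonucleoproteins (snRNPs). The U1 snRNP pairs with the 5′ splice site, the U2AF heterodimer binds the polypyrimidine tract and the AG at the 3′ splice site, and the U2 snRNP, through its SF3A and SF3B complexes, engages the branch point before the U4/U6.U5 tri-snRNP joins. Snrp genes encode the Sm ring and the U1- and U2-specific proteins, and Prpf genes encode mainly proteins of the tri-snRNP and of the complexes that activate it. SR proteins (Srsf) and heterogeneous nuclear ribonucleoproteins (Hnrnp) bind exons and introns and shift the choice of splice sites, often in opposite directions.

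RNA was sequenced from EO771, a mouse breast cancer cell line, in 4 groups of 2 libraries. Cells in the first experiment received, for 48 h, either the vehicle alone (saline with 2% DMSO) or 12-HETE at 100 nM (replicates 4 and 5). 12-HETE is a lipid that 12-lipoxygenase makes from arachidonic acid. In the second experiment cells carried an empty vector or a vector that overexpresses ADAR1 p150, the interferon-inducible isoform of an RNA-editing enzyme (replicates 1 and 2), and the promoter of that vector and the clonality of the transduced cells are not given in the sources used here. The sample labels do not say whether replicates were separate cultures. The study describes its editing analysis of these conditions as made on independent experiments, without naming the libraries. P-values measure the spread between these libraries.

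Total counts ranged from 1101767 to 1537037 per library, and each treated library was deeper than each library of its control group. At these depths 3 counts correspond to 1.95 to 2.72 CPM, a count rescaled so that every library has the same total. Adar, which the overexpression should raise, was counted 2 and 8 times with vector, against 181 and 140 times with ADAR1 p150. Among 5 epithelial markers Krt8, Krt18 and Krt19 were counted in every library, Epcam had 1 to 4 counts and Cdh1 had 0 in every library. The summed counts of 10 markers of immune, endothelial and fibroblast cells were 58 to 65 and 53 to 55 in the vehicle and 12-HETE libraries, and 37 to 64 and 55 to 89 in the vector and ADAR1 p150 libraries, and Cd3e was at 0 throughout. AY036118, a non-coding gene named here after its values were seen, held 489519 to 769560 counts per library. Its normalised level was 1.19-fold higher with 12-HETE (log2 fold change 0.25, standard error 0.07, adjusted p = 0.00318 in edgeR), and counts of members are shares of what is left.

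Promoters of 3 members are shown because Srsf1 had the smallest adjusted p with 12-HETE, Prpf4 was the member that rose in both experiments, and Prpf39 had the smallest adjusted p with ADAR1 p150. Each window runs from 250 bases before to 50 bases after the gene start in RefSeq (GRCm38.p6), 5′ to 3′ on the gene's strand, which is plus for all 3. Capitals mark CCAAT and GGGCGG boxes found on either strand. The windows are chr11:88047123-88047422 for Srsf1, chr4:62408533-62408832 for Prpf4 and chr12:65036084-65036383 for Prpf39.
Srsf1: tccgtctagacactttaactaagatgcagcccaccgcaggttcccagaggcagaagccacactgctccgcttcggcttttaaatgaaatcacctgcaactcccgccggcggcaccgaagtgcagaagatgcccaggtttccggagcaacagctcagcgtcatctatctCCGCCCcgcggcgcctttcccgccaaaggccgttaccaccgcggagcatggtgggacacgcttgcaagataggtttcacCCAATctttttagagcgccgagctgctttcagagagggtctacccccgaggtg
Prpf4: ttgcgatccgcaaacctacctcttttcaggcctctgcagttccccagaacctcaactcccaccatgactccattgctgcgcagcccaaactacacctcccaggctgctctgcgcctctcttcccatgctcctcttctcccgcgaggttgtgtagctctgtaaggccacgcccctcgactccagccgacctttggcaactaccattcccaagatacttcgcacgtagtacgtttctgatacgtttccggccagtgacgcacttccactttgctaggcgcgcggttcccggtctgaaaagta
Prpf39: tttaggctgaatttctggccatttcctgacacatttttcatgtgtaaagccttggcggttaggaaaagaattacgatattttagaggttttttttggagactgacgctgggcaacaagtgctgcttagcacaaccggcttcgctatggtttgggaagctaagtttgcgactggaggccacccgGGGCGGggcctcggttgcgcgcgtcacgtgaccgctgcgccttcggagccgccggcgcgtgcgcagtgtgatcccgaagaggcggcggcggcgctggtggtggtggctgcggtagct

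Srsf1 holds 1 CCAAT and 1 GGGCGG in this window, Prpf39 holds 1 GGGCGG, and Prpf4 holds neither. RefSeq windows were matched by symbol for 59 of the 69 members, some with several starts, which gave 80 windows. GGGCGG was in 51 of these (63.8%), against 53.7% of 6808 windows of tested genes and 35.7% of all 32851 windows. CCAAT was in 38 (47.5%, against 34.7% and 37.4%) and TATAAA in 7 (8.75%, against 8.20% and 13.6%). CCGGAAG, the core of sites bound by ETS factors, was in 25 (31.3%), against 13.9% of windows of tested genes and 8.86% of all, and in none of the 3 windows printed. All motifs were searched on both strands, and a match is a string of letters, not a binding site.

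Gene models are from GENCODE M21 (GRCm38), with the strand in brackets. Of the members that passed a test, the SR protein genes are Srsf1 on chromosome 11 from 88047373 to 88053755 (plus), Srsf2 on chromosome 11 from 116849901 to 116853094 (minus) and Srsf3 on chromosome 17 from 29032628 to 29043373 (plus). The U2AF genes are U2af1 on chromosome 17 from 31647081 to 31658892 (minus) and U2af2 on chromosome 7 from 5062143 to 5079938 (plus), and the SF3B gene is Sf3b2 on chromosome 19 from 5273932 to 5295455 (minus). The Prpf genes are Prpf4 on chromosome 4 from 62408797 to 62426990 (plus), Prpf31 on chromosome 7 from 3629985 to 3642486 (plus) and Prpf39 on chromosome 12 from 65036333 to 65063386 (plus). The Hnrnp genes are Hnrnpab on chromosome 11 from 51600100 to 51606847 (minus), Hnrnpd on chromosome 5 from 99955935 to 99978938 (minus) and Hnrnpu on chromosome 1 from 178321108 to 178337797 (minus). Counts are summed over all exons of a gene and do not separate isoforms. Many Hnrnp and Snrp genes have processed pseudogenes in the mouse genome, and how reads with several matches were counted is not given in the sources used here, so values of such genes carry that uncertainty.

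Whether counts came from a member's own strand is not given in the sources used here. For 12 members a gene with exons overlapping on the opposite strand had more counts. With that limit, counts are set out per kilobase of exon, and their order need not be the order of expression. On that scale Hnrnpab was first of the 69 at 82.9 normalised CPM per kilobase, averaged over the 8 libraries. Srsf9 followed at 66.4, then Hnrnpu at 23.4 and Prpf39 at 23.3. Hnrnpf at 12.3, Srsf1 at 11.7, Snrpa at 11.6, Hnrnpa1 at 10.3 and Srsf2 at 10.1 came next. A few genes therefore carry most of the counts of each family. Prpf39 alone gave 61.5% of the Prpf counts, U2af2 78.8% of the U2af counts, and Srsf9 36.5% of the Srsf counts.

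Summed over all 69 members, normalised CPM was 1940 ± 27.2 (SD, n = 2) with vehicle against 2355 ± 43.7 with 12-HETE. In the second experiment it was 1652 ± 3.78 with vector against 1533 ± 91.6 with ADAR1 p150. As plain CPM of all counts the 12-HETE libraries gave 2176 and 1983, against 1960 and 1966 with vehicle, so most of the gap in replicate 5 came with the TMM normalisation. With 12-HETE the Srsf sum was 412 ± 5.97 (vehicle 294 ± 1.22), the Hnrnp sum 1047 ± 1.24 (vehicle 836 ± 19.8), the Snrp sum 132 ± 4.32 (vehicle 88.4 ± 8.76) and the U2af sum 72.8 ± 1.04 (vehicle 37.9 ± 0.349). In these 4 families both 12-HETE libraries were above both vehicle libraries. The Sf3 sum (197 ± 3.18 against 183 ± 28.1) and the Prpf sum (494 ± 30.02 against 502 ± 8.52) overlapped between the groups. With ADAR1 p150 the Srsf sum was 220 ± 5.31 (vector 268 ± 7.49) and the Prpf sum 352 ± 12.0 (vector 447 ± 29.0), both lower without overlap. The Hnrnp sum was 733 ± 1.18 (vector 696 ± 1.32), higher without overlap. As plain CPM of all counts the Hnrnp groups overlapped (740 and 718 with ADAR1 p150, 665 and 722 with vector). The Sf3, Snrp and U2af sums overlapped on the normalised scale. The sums are given as a description with no test, and the share of other gene sets without overlap was not counted. Between the vehicle and vector groups the Srsf, Sf3, Hnrnp and Prpf sums also did not overlap, whereas the Snrp and U2af sums did. In bulk RNA, fewer cells with a transcript and less of it per cell cannot be told apart.

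**Figure D1:**
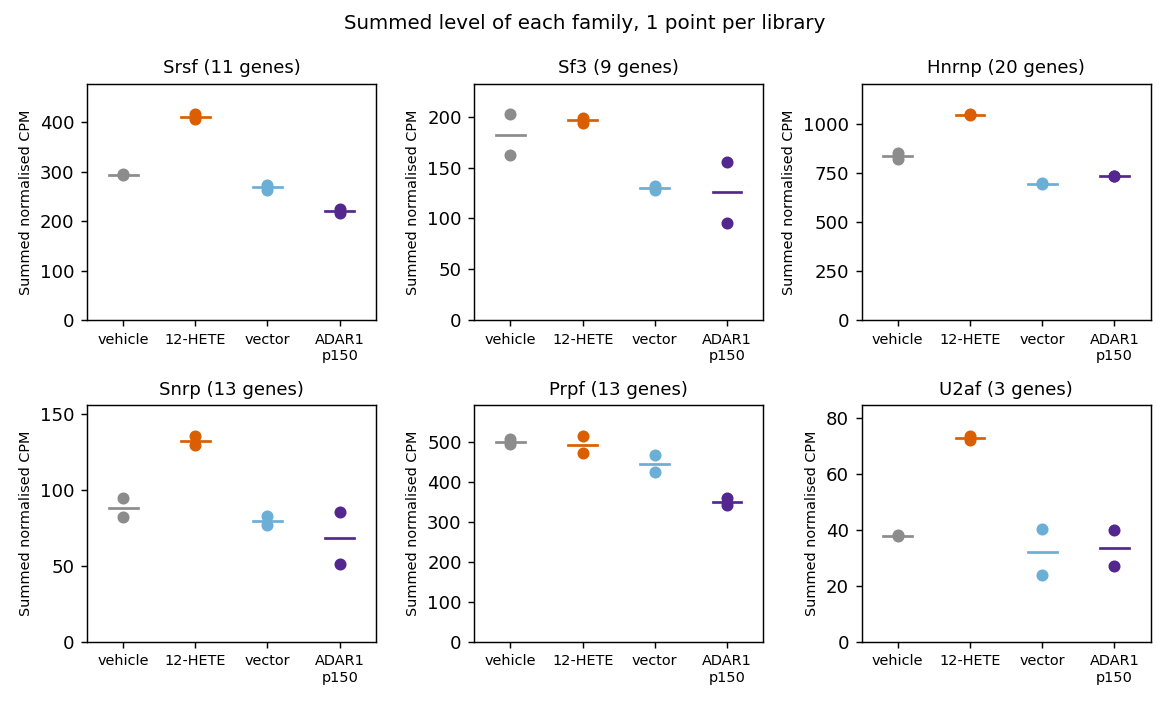
Summed normalised CPM of each family (y axis, from 0) in each library (points) of the 4 groups, with horizontal lines at group means. The 12-HETE points lie above the vehicle points for Srsf, Hnrnp, Snrp and U2af. The ADAR1 p150 points lie below the vector points for Srsf and Prpf and above them for Hnrnp.

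The first comparison asked how the families responded to 12-HETE. Of the 46 tested members 9 rose and 0 fell (adjusted p under 0.05, edgeR), which is 19.6% higher. The background, not matched for count level, was 15.1% of tested genes higher and 14.2% lower. Both U2af genes, 2 Srsf, 2 Prpf and 3 Hnrnp genes rose, and no tested Sf3 or Snrp gene passed. With a 2-fold change also required, 5 members were higher (Srsf2, Prpf4, Prpf31, Hnrnpd and U2af1) and 0 lower, beside 6.12% and 8.25% of tested genes. The median log2 fold change over the 46 was 0.27, against 0.00 over all genes tested, and 34 of the 46 were above 0 (50.4% of all genes). By family the median was 0.40 for Srsf, 0.24 for Sf3, 0.24 for Hnrnp, 0.53 for Snrp, 0.07 for Prpf and 1.13 for U2af.

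Both subunits of U2AF rose. U2af2, the subunit that binds the polypyrimidine tract, was counted 35 and 38 times with vehicle, against 76 and 70 times in the 12-HETE libraries. This gave a rise of 0.81 on the log2 scale (standard error 0.25, adjusted p = 0.0123). U2af1, which reads the AG at the 3′ splice site, was counted 7 and 7 times with vehicle, against 21 and 23 times in the 12-HETE libraries (log2 fold change 1.45, standard error 0.43, adjusted p = 0.00902). The groups did not overlap for either gene, but the share of all tested genes without overlap was not counted, here or for the genes below. U2af2 did not pass when any 1 of the 4 libraries of the experiment was left out (adjusted p up to 0.0713), and U2af1 did not pass without vehicle replicate 5 (0.0819) or without 12-HETE replicate 5 (0.0712). U2af1l4, a U2af1 paralogue, had 0 to 4 counts per library and was not tested.

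Among the SR proteins Srsf1, a splicing factor with known oncogenic activity, changed with the smallest adjusted p of any member. It was counted 64 and 67 times with vehicle, against 154 and 145 times in the 12-HETE libraries, which is 55.2 ± 0.562 and 110.4 ± 0.844 normalised CPM (SD, n = 2). This gave a rise of 1.00 on the log2 scale (standard error 0.17, adjusted p = 2.45e-05). Srsf2, also known as SC35 and a component of nuclear speckles, was counted 29 and 24 times with vehicle, against 71 and 55 times in the 12-HETE libraries (log2 fold change 1.05, standard error 0.25, adjusted p = 0.00119), and it did not pass without vehicle replicate 5 (adjusted p = 0.0529). Srsf9, the Srsf gene with the most counts, had 148 and 131 with vehicle and 182 and 170 with 12-HETE. On the normalised scale its difference was small (log2 fold change 0.14, standard error 0.14, adjusted p = 0.479). The 8 Srsf genes that did not pass ranged from -0.09 to 0.92.

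In the Prpf family Prpf4, a protein of the U4/U6 snRNP, was counted 24 and 16 times with vehicle, against 51 and 48 times in the 12-HETE libraries (log2 fold change 1.11, standard error 0.29, adjusted p = 0.00286). Prpf31, which is needed to join U4/U6 to U5, was counted 6 and 8 times with vehicle, against 16 and 22 times in the 12-HETE libraries (log2 fold change 1.24, standard error 0.44, adjusted p = 0.0322). Both genes were higher in each 12-HETE library than in each vehicle library. Prpf31 did not pass without vehicle replicate 4, vehicle replicate 5 or 12-HETE replicate 5 (adjusted p up to 0.243), and Prpf4 did not pass without vehicle replicate 5 (adjusted p = 0.122). Prpf8, the U5 protein at the heart of the catalytic centre, had 83 and 68 against 127 and 86 counts and did not pass (log2 fold change 0.30, standard error 0.20, adjusted p = 0.261). The 8 Prpf genes that did not pass ranged from -0.67 to 1.00.

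The rising Hnrnp genes included the 2 with the most counts. Hnrnpu, a nuclear scaffold protein that binds RNA and DNA, was counted 311 and 294 times with vehicle, against 431 and 437 times in the 12-HETE libraries (log2 fold change 0.33, standard error 0.11, adjusted p = 0.0213). Hnrnpab had 285 and 248 against 448 and 378 counts (log2 fold change 0.44, standard error 0.12, adjusted p = 0.00346). Hnrnpd, also known as AUF1 and a regulator of the decay of AU-rich mRNAs, had 7 and 9 against 19 and 22 counts (log2 fold change 1.16, standard error 0.42, adjusted p = 0.0364). The changes of Hnrnpu and Hnrnpab were well under 2-fold. Hnrnpd did not pass when any 1 of the 4 libraries was left out (adjusted p 0.0703 to 0.190) or with a replicate block (adjusted p = 0.0584). Hnrnpab did not pass without vehicle replicate 5 or 12-HETE replicate 4, nor Hnrnpu without vehicle replicate 5 or 12-HETE replicate 5. The other 13 tested Hnrnp genes ranged from -0.38 to 0.71.

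No tested Snrp or Sf3 gene passed with 12-HETE. Snrpa, the A protein of the U1 snRNP, was counted 40 and 40 times with vehicle, against 62 and 70 times in the 12-HETE libraries (log2 fold change 0.53, standard error 0.23, adjusted p = 0.0749). Snrpc, the C protein of the U1 snRNP, had 18 and 23 against 14 and 19 (log2 fold change -0.50, standard error 0.36, adjusted p = 0.327). Sf3b2, a subunit of SF3B, had 64 and 84 against 56 and 68 (log2 fold change -0.44, standard error 0.20, adjusted p = 0.103). Sf3b3 had 35 and 52 against 72 and 64 (log2 fold change 0.45, standard error 0.26, adjusted p = 0.206). Of the 13 Snrp genes 10 were below the count minimum, among them the Sm proteins Snrpg, with 6 and 7 against 22 and 12 counts, and Snrpe, with 6 and 5 against 20 and 11. These 10 were not tested.

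Calls with 12-HETE depended on the test and on single libraries. DESeq2 called 1 of the 46 members (Srsf1; 7 at an unadjusted p under 0.05), beside 1030 of 6901 tested genes (1688 unadjusted). Calls that were lost without single libraries are given with each gene above. Leaving out 1 library of the experiment gave the members a median log2 fold change of 0.22 to 0.32. Without AY036118, Rn7s1 and Rn7s2 in the library totals, 7 members rather than 9 were higher with 12-HETE. Hnrnpu (adjusted p = 0.103) and Hnrnpd (adjusted p = 0.0521) did not pass there. The members' median log2 fold change was 0.20 rather than 0.27, and that over all genes tested moved too, from 0.00 to -0.07.

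**Figure D2:**
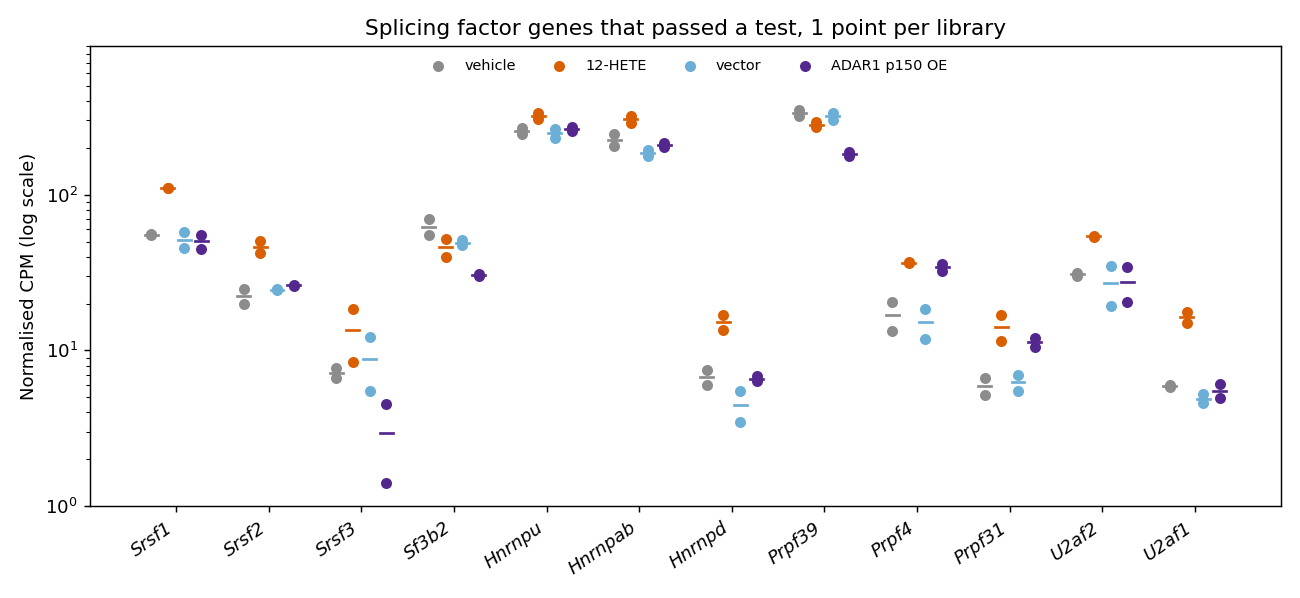
Normalised CPM (y axis, log scale) of the 12 members that passed any test, with 1 point per library coloured by group and a line at each group mean; levels are not divided by gene length, so only groups within a gene can be compared. Srsf1, Srsf2, U2af1 and U2af2 are high in both 12-HETE libraries, and Prpf39 is low in both ADAR1 p150 libraries.

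The second comparison set ADAR1 p150 overexpression against the empty vector. Of the 46 members 1 rose (2.17%) and 2 fell (4.35%), beside 14.5% of tested genes higher and 11.1% lower. The members' share was below this background in both directions, but the background was not matched for count level. Of tested genes that averaged 100 or more counts, 21.6% rose and 26.1% fell with ADAR1 p150. The share called thus differed with count level, and whether members differ from genes with similar counts was not tested. With a 2-fold change also required, 1 member was higher and 0 lower (8.11% and 4.69% of tested genes). The median log2 fold change was 0.12, against 0.07 over all genes tested. It was -0.10 without ADAR1 p150 replicate 1. By family the median was -0.26 for Srsf, 0.23 for Sf3, 0.16 for Hnrnp, -0.13 for Snrp, 0.38 for Prpf and 0.09 for U2af.

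Prpf39, a protein associated with the U1 snRNP, fell. It was counted 367 and 343 times with vector, against 251 and 248 times with ADAR1 p150 (log2 fold change -0.80, standard error 0.11, adjusted p = 1.28e-06). It was lower in both overexpressing libraries than in the other 6 libraries. Sf3b2 fell from 56 and 54 counts to 43 and 41 (log2 fold change -0.68, standard error 0.23, adjusted p = 0.0260). Prpf4 rose, from 13 and 21 counts to 51 and 43 (log2 fold change 1.17, standard error 0.30, adjusted p = 0.00325). Its value was near that with 12-HETE.

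The genes of the 12-HETE set other than Prpf4 did not pass here. Srsf1 was counted 63 and 52 times with vector, against 64 and 73 times with ADAR1 p150 (log2 fold change -0.04, standard error 0.20, adjusted p = 0.912). U2af2 had 21 and 40 against 49 and 27 counts (log2 fold change 0.02, standard error 0.29, adjusted p = 0.967). Prpf31 had 6 and 8 against 17 and 14 counts (log2 fold change 0.84, standard error 0.46, adjusted p = 0.187). The rest of the set lay at 0.54 (Hnrnpd), 0.18 (Hnrnpab), 0.15 (U2af1), 0.10 (Srsf2) and 0.09 (Hnrnpu). Srsf9, outside that set, had 125 and 118 against 116 and 111 counts (log2 fold change -0.39, standard error 0.15, adjusted p = 0.0554). The replicates with ADAR1 p150 differed in both directions, with 41 members at a lower normalised level in replicate 2 than in replicate 1 and 25 at a higher one. Srsf6 had 18 counts in replicate 1 and 1 in replicate 2, Snrpe 10 and 1, Sf3b4 11 and 1, and Sf3b3 70 and 26, whereas Srsf7 had 6 and 15, Hnrnph1 11 and 23 and Hnrnph2 2 and 7. The number of members called moved when single libraries were left out, to 3 higher without ADAR1 p150 replicate 2, 0 higher and 3 lower without vector replicate 1, and 1 lower without vector replicate 2. DESeq2 called 1 member (Prpf39; 4 at an unadjusted p under 0.05), beside 810 of 6901 tested genes (1532 unadjusted). Sf3b2 did not pass when any single library of the experiment was left out, and Prpf4 did not pass without vector replicate 1 (log2 fold change 0.90, adjusted p = 0.0784).

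**Figure D3:**
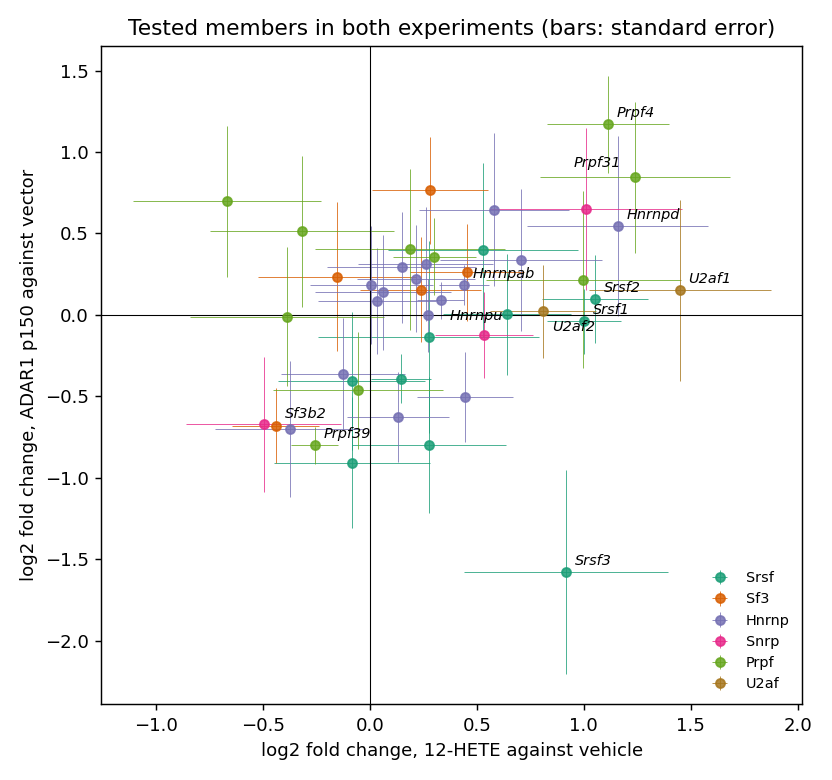
log2 fold change of the 46 tested members with 12-HETE (x axis) and with ADAR1 p150 (y axis), coloured by family, with bars of 1 standard error and names for members that passed any test. Most points lie right of 0 on the x axis (34 of 46), and Prpf4, at 1.11 and 1.17, is the point that passed the test on both axes.

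Responses in the experiments were compared directly by an interaction term. The difference passed for 3 of the 46 members, beside 15.0% of all tested genes. Srsf1 differed by 1.04 on the log2 scale (standard error 0.27, adjusted p = 0.00586), being raised with 12-HETE and near its control with ADAR1 p150. Prpf39 differed by 0.54 (standard error 0.16, adjusted p = 0.0150), as its value with 12-HETE was -0.26 (375 and 423 against 408 and 353 counts, adjusted p = 0.0678). Srsf3, the smallest SR protein, differed by 2.50 (standard error 0.79, adjusted p = 0.0266) on few counts: 9 and 8 in the vehicle libraries, 26 and 11 after 12-HETE, 6 and 14 in the vector libraries, and 2 and 6 under ADAR1 p150. Neither experiment alone passed for Srsf3 (log2 fold changes 0.92 and -1.58, adjusted p = 0.151 and 0.0619). Prpf4 did not differ beyond its error (difference -0.06, standard error 0.42). DESeq2 called 0 members (3 at an unadjusted p under 0.05), beside 449 of 6901 tested genes (1053 unadjusted). Without 12-HETE replicate 4 the count was 1. The difference did not pass for Srsf1 without vector replicate 1 (adjusted p = 0.0705), and it did not pass in 4 of 8 such fits each for Prpf39 and Srsf3. Of the 46 members 31 had a difference above 0, with a median of 0.26. Over all genes tested the median was -0.07, and 45.9% were above 0. By family, all 10 tested Srsf genes were above 0 (median 0.73), as were 3 of 3 Snrp (0.36) and 2 of 2 U2af genes (1.04). In the Sf3, Hnrnp and Prpf families 3 of 5, 9 of 16 and 4 of 10 were above 0.

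As a background, the vector group was set against the vehicle group, which differ in vector and in vehicle solution and are labelled with different replicate numbers. In edgeR 0 of the 46 members passed, beside 0.116% of tested genes, with 8 members at an unadjusted p under 0.05 (795 of 6901 genes). DESeq2 called 0 members (1 unadjusted), beside 0 of 6901 tested genes (232 unadjusted). Still, the members lay lower with vector: the median log2 fold change was -0.32, against -0.01 over all genes tested, and 8 of 46 were above 0. Of the 16 Hnrnp genes 1 was above 0, and of the 5 Sf3 genes 0 were. The lowest was Hnrnpa2b1, a reader of exon and intron sequence elements, with 16 and 15 counts in the vehicle libraries and 5 and 9 in the vector libraries (log2 fold change -1.05, standard error 0.46, adjusted p = 0.377). Sf3b1, the subunit that contacts the branch point, was counted 31 and 36 times against 13 and 20 times (log2 fold change -0.93, standard error 0.33, adjusted p = 0.279). Hnrnpu and Srsf1, by contrast, lay at -0.05 and -0.10. The members' sum of 1940 with vehicle and 1652 with vector shows the same gap.

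How the counting treated strand is not given in the sources used here. Without strand, reads from a member and from a gene on the opposite strand cannot be told apart where exons overlap. In GENCODE (GRCm38), 23 of the 69 members have exons overlapped on the opposite strand, and 17 of these have a partner gene in the table. In 12 of the 17 a partner had more counts than the member. Among tested members 13 of 46 had such a partner (28.3%), against 40.6% of 5761 annotated tested genes.

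The partners form a list made after their values were seen. With 12-HETE 11 of 16 tested partners rose and 0 fell (68.8% higher). The count was 6 with DESeq2, 7 without vehicle replicate 5 and 7 without 12-HETE replicate 5. Among all tested genes with an opposite-strand partner 19.8% rose. Of the 12 partners that averaged 100 or more counts 10 rose (83.3%) and 0 fell. Of all tested genes with that many counts, with or without a partner, 35.3% rose and 20.7% fell. Phykpl, opposite Hnrnpab, was counted 2372 and 2255 times with vehicle, against 5579 and 5973 times in the 12-HETE libraries (log2 fold change 1.13, standard error 0.10, adjusted p = 2.23e-11). That is 11.5 times the counts of Hnrnpab itself on average. Mfsd11, opposite Srsf2, rose from 927 and 864 to 2464 and 2494 counts (log2 fold change 1.28, standard error 0.10), and Mettl23, also opposite Srsf2, rose from 20 and 24 to 52 and 56 counts. Gm15927, opposite Prpf31, rose from 808 and 790 to 1742 and 1680 counts (log2 fold change 0.91, standard error 0.10). Hnrnpab, Srsf2 and Prpf31 are thus members that rose beside a partner that also rose.

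For the other risers no partner in the table was called higher. Cox20, opposite Hnrnpu, did not pass with 12-HETE (log2 fold change 0.11, adjusted p = 0.592). No exon overlaps Prpf4, U2af1 or U2af2 on the opposite strand. Srsf1 and Hnrnpd are overlapped only by antisense genes with no row in the table, so whether those rose is unknown. Leaving out all members with any overlap left 29 tested members, of which 3 were higher (10.3%, beside 15.1% of all tested genes) and 0 lower with 12-HETE (median 0.26), and 1 was higher (3.45%, beside 14.5%) and 0 lower with ADAR1 p150 (median 0.15). With ADAR1 p150, where 13.5% of tested genes with a partner rose and 14.7% fell, 1 of the 16 partners of members rose (Cox20, by 0.77) and 2 fell (BC024978 opposite Snrpa, by 0.52, and Gm12992 opposite Srsf4, by 0.29), or 1 when any single library of that experiment was left out. Fkbp3, opposite Prpf39, did not pass (log2 fold change 0.19, adjusted p = 0.719). The part of partner reads in the members' values was not tested.

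**Figure D4:**
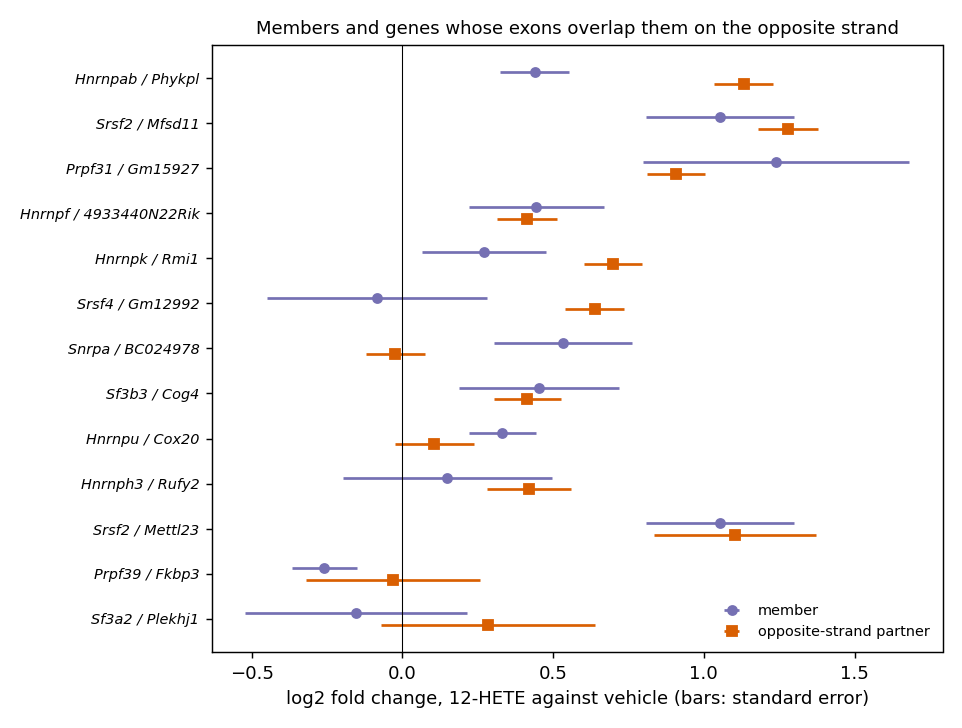
log2 fold change with 12-HETE (x axis, bars of 1 standard error) for tested members (circles) and the tested genes overlapping them on the opposite strand (squares), ordered by the partner's mean count. Partners of Hnrnpab, Srsf2 and Prpf31 lie at 0.91 or above, and that of Prpf39 lies near 0.

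Other genes of the pathway were taken from 3 lists of 116 genes, of which 63 were tested. With 12-HETE 3 rose (4.76%, beside 15.1% of all tested genes) and 2 fell (3.17%, beside 14.2%), and the median was 0.10. The risers were Eftud2, the GTPase of the U5 snRNP (log2 fold change 0.74, adjusted p = 0.0464), Rbm10, a regulator of exon inclusion (0.91, adjusted p = 0.00933), and Alyref, an mRNA export adaptor (0.97, adjusted p = 0.0107). Snrnp35 of the minor spliceosome fell by 1.30 (adjusted p = 0.000286), from 55 and 49 to 27 and 21 counts, and Rbm39 fell by 0.68 (adjusted p = 0.0448). With ADAR1 p150 2 rose (3.17%, beside 14.5% of all tested genes) and 1 fell (1.59%, beside 11.1%), and the median was -0.10. Zrsr2, a U2af1-related protein of minor introns, rose by 1.19 (adjusted p = 0.0102), Rbm10 rose by 1.05 (adjusted p = 0.00835), and Bud31 fell by 0.59 (adjusted p = 0.00621). By list, 20 core spliceosome genes, 27 regulators of splice site choice and 16 kinase, import and speckle genes were tested, with medians of -0.04, 0.10 and 0.15 with 12-HETE.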

How the data were processed

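The authors deposited raw counts per gene for 8 libraries. Their methods name FastQC, removal of duplicates with prinseq, alignment to GRCm38 with STAR and counting with featureCounts. The methods name Trizol and a directional kit, whereas the sample labels name other extraction and library kits. No values of single reads, editing or isoforms were analysed here. The removal of duplicates is described for the editing analysis, and whether it applied to the deposited counts is not stated. If it did, counts are not original read numbers. The 3-count floors cover counting error only.

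A gene was tested where its counts averaged 10 or more (6901 of 49997). Counts were normalised by TMM and fitted in edgeR 4.0.16 (limma 3.58.1, R 4.3.3) with a coefficient per group over all 8 libraries and the quasi-likelihood test. Standard errors were the size of the log2 fold change divided by the square root of F. P-values were adjusted by Benjamini-Hochberg over all tested genes, and a gene passed at an adjusted p under 0.05. The procedure was also run on simulated counts that had a common spread and large changes. That run does not measure its error rate on these data. Named members are those passing any test and the 2 tested members of each family with the most counts. Members named beyond these were chosen after their values were seen, as were the opposite-strand partners. Named genes of the other lists are those passing. The members, lists and tests were chosen with earlier results of these data known. Alternatives were DESeq2 1.42.0, RLE factors, 2 other count minimums, fits of 4 libraries, a replicate block, leaving out each library, leaving out abundant non-coding genes, and a 2-fold change. Replicates of a group differed by more than sampling noise (mean chi-square per gene 1.39 to 1.71).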

Additional observations from a re-analysis of the deposited data

Results flagged for a closer look

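The response differed between the experiments for 3 members by the interaction test in edgeR. Srsf1 differed by 1.04 on the log2 scale (12-HETE minus ADAR1 p150, adjusted p = 0.00586), higher in 2 of 2 12-HETE libraries than in either vehicle library. Prpf39 differed by 0.54 (adjusted p = 0.0150), and it was lower in 2 of 2 ADAR1 p150 libraries than in either vector library. Srsf3 differed by 2.50 (adjusted p = 0.0266), with both 12-HETE libraries above both vehicle libraries. In raw counts 1 ADAR1 p150 library had as many as 1 vector library. As normalised CPM the ADAR1 p150 libraries (1.41 and 4.54) lay below the vector libraries (5.48 and 12.2).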

How the results depend on the processing

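With DESeq2 1 member was higher with 12-HETE, 0 were higher and 1 lower with ADAR1 p150, 0 differed between the experiments, and 6 partners were higher with 12-HETE. Members higher with 12-HETE numbered 5 with no count minimum, 5 with a 2-fold change also required, and 4 to 6 when 1 library was left out. Prpf39 was lower with 12-HETE (1 member against 0) with 10 counts required in every library and without AY036118, Rn7s1 and Rn7s2. Members lower with ADAR1 p150 numbered 4 with RLE factors, 4 without those abundant genes and 0 with a 2-fold change. Leaving out 1 library gave 0 to 3 members higher and 1 to 3 lower with ADAR1 p150, 1 to 3 that differed between the experiments, a median of -0.10 to 0.16 with ADAR1 p150, and 7 to 11 partners higher with 12-HETE. Partners higher with ADAR1 p150 numbered 2 with 10 counts in every library, and partners lower numbered 1 in all 4 fits that left out 1 library of that experiment.

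Values with ADAR1 p150 that had not passed changed sign for Hnrnpu (-0.017) and Srsf2 (-0.0100) with no count minimum, and for U2af2 with DESeq2 (-0.038), RLE factors (-0.036), no minimum (-0.083), 4 libraries (-0.033) and without the abundant genes (-0.032). Leaving out 1 library gave -2.3e-05 to 0.18 for Hnrnpu, -0.56 to 0.76 for Sf3b3, -0.38 to 0.082 for Snrpa, -0.20 to 0.14 for Srsf1 and -0.41 to 0.52 for U2af2 with ADAR1 p150, and -0.032 to 0.26 for Srsf9 with 12-HETE. The causes were not tested, beyond the fewer libraries or genes that some settings use.

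Same-numbered libraries deviated with correlations of -0.0774 in the 12-HETE and -0.112 in the ADAR1 p150 experiment. This shows no shared deviation, but with 2 libraries per group it cannot exclude a pairing. With a replicate block 8 members were higher with 12-HETE, 1 higher and 2 lower with ADAR1 p150, 3 differed between the experiments, and partners lower with ADAR1 p150 fell to 1. A crossed pairing in the ADAR1 p150 experiment, chosen after seeing the data, gave 1 higher, 3 lower and 3 that differed. At these depths 23 of 69 members had too few counts to test, 10 of them Snrp genes, and the members with about 10 counts per library carry the widest errors.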
